A study of Arabidopsis thaliana with 18 samples.

Results

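XTH18, XTH19, XTH33 and XTH26 encode xyloglucan endotransglucosylase/hydrolases, enzymes of the plant cell wall. They were taken as the probe sets that the platform's gene table gives to 1 of these 4 names alone, which found 4 members among the 13356 genes that such single-gene probe sets name. Each member was read by 1 probe set, and none of the 4 probe sets is listed for another gene. The members were XTH18 (AT4G30280), XTH19 (AT4G30290) and XTH26 (AT4G28850) on chromosome 4 and XTH33 (AT1G10550) on chromosome 1. In the RefSeq annotation no protein-coding gene lies between XTH18 and XTH19, and 155 lie between XTH19 and XTH26. Another family gene, XTH24, is the neighbour of XTH18 on its other side, and it was not analysed here.

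Rosettes of Arabidopsis thaliana ecotype Col-0 were profiled on Affymetrix ATH1 arrays from plants aged 20 days and raised in continuous light. The treated plants stood in a noiseless chamber for 1 h under sound of a single frequency, 250, 500, 1000, 2000 or 3000 Hz, at a constant 80 dB. The control plants spent 1 h in such a chamber in silence, and tissue was taken at once after the exposure. There were 18 arrays in 6 groups of 3, which the labels call biological replicates, and they name no mutation or transgene in any group. The labels do not say how many plants made up a replicate.

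Xyloglucan is the hemicellulose that coats and tethers cellulose in the growing walls of dicots. XTH enzymes cut a xyloglucan chain and either join the cut end to another xyloglucan chain or release it to water, and through this they loosen, reinforce or repair the wall as cells expand. The family is large, its members differ in tissue and in hormone response, and several are known for a rapid response to touch. XTH18 and XTH19 are close relatives known chiefly from roots, XTH26 is known from root hairs and the root epidermis, and XTH33 is predicted to carry a membrane-spanning segment, unlike most of the family. The comparisons address which frequencies of sound go with a different level of these transcripts in leaves.

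All levels below are log2 signals, on which 1 unit is a 2-fold difference, and each change is a difference of group means with the standard error (SE) or the 95% interval of the fit. XTH18, XTH19 and XTH33 were chosen by their change at 500 Hz against silence, known from earlier work on these arrays. Their values at 500 Hz are therefore a description without a test, and so are the comparisons of 500 Hz with other frequencies. For XTH26 the values behind its choice are not known, so none of its changes was given a p-value. At the other frequencies the adjusted p-values come from limma with the Benjamini-Hochberg method over all 22746 probe sets. Those comparisons share the 3 control arrays with the 500 Hz comparison, so they are no independent evidence. In extracts of whole rosettes, fewer cells of a type and less RNA per cell cannot be told apart.

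XTH18 spanned the widest range of the 4 members, from 6.62 to 11.09. Its control arrays read 6.88, 9.34 and 6.62 in replicates 1, 2 and 3. The 500 Hz arrays read 9.27, 10.66 and 10.73, and the 1000 Hz arrays read 11.09, 9.47 and 9.66. Both groups lay well above control replicates 1 and 3, all the 1000 Hz arrays also lay above control replicate 2 (a full separation from silence that 7.71% of all probe sets had at 1000 Hz), and the lowest 500 Hz array fell just under that replicate. The 250 Hz arrays read 8.41, 8.01 and 9.38 and the 3000 Hz arrays 8.01, 8.41 and 9.62. These groups overlapped each other over most of their range, and each reached into the range of the controls. The 2000 Hz arrays read 7.15, 7.16 and 6.95, a tight group between the lower control arrays and control replicate 2.

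The group means of XTH18 ran in the order 500 Hz (10.22 ± 0.82, SD, n = 3), 1000 Hz (10.07 ± 0.89), 3000 Hz (8.68 ± 0.84), 250 Hz (8.60 ± 0.70), control (7.61 ± 1.5) and 2000 Hz (7.09 ± 0.12). Every pair of neighbours in that order had overlapping arrays. At 500 Hz XTH18 stood 2.61 above the control (95% interval 1.23 to 3.99), a 6.09-fold difference. At 1000 Hz the difference was 2.46 (1.08 to 3.84), or 5.50-fold, and it missed the threshold over all probe sets (limma adjusted p = 0.132). At 250 Hz it was 0.99 (-0.39 to 2.37, limma adjusted p = 0.503), at 3000 Hz 1.07 (-0.31 to 2.45, limma adjusted p = 0.341) and at 2000 Hz -0.53 (-1.91 to 0.85, limma adjusted p = 0.708).

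XTH19, the gene next to XTH18, spanned 5.36 to 8.42. Its control arrays read 5.79, 7.36 and 5.36, and its 500 Hz arrays 7.28, 8.34 and 8.42. As for XTH18, control replicate 2 was the high control, and it sat just above the lowest 500 Hz array. The 250 Hz arrays read 6.29, 6.46 and 7.97 and the 1000 Hz arrays 7.57, 7.41 and 6.16. The 3000 Hz arrays read 6.71, 6.37 and 6.38 and the 2000 Hz arrays 6.13, 5.96 and 6.10. The groups at 250 and 1000 Hz each held a single array far from its companions, whereas the groups at 2000 and 3000 Hz were narrow, with every 3000 Hz array above every 2000 Hz array (0.42, limma adjusted p = 0.767), as for 13.4% of all probe sets.

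The means of XTH19 ran from 500 Hz (8.01 ± 0.64, SD, n = 3) through 1000 Hz (7.05 ± 0.77), 250 Hz (6.91 ± 0.92), 3000 Hz (6.49 ± 0.19) and control (6.17 ± 1.05) to 2000 Hz (6.06 ± 0.09), and again all neighbours overlapped. At 500 Hz XTH19 stood 1.84 above the control (0.76 to 2.93), a 3.59-fold difference. None of the other 4 frequencies differed from silence by the test. The changes were 0.74 at 250 Hz, 0.88 at 1000 Hz, -0.11 at 2000 Hz and 0.32 at 3000 Hz, each with an SE of 0.51 (limma adjusted p between 0.435 and 0.934).

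XTH33, the member with the predicted membrane segment, read 5.55, 8.17 and 6.15 in the controls. It read 9.35, 8.47 and 8.91 at 500 Hz, 8.56, 8.74 and 8.89 at 1000 Hz and 8.18, 8.56 and 8.52 at 3000 Hz. Every array of these 3 frequencies lay above all controls, as was so for 10.3%, 7.71% and 10.1% of all probe sets. The 250 Hz arrays read 7.94, 7.79 and 7.67 and the 2000 Hz arrays 8.29, 8.50 and 7.43. The 250 Hz arrays all fell below control replicate 2 and above the other controls, and at 2000 Hz 2 arrays lay above every control.

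XTH33 was lowest in silence, at 6.62 ± 1.37 (SD, n = 3), below 250 Hz (7.80 ± 0.14), 2000 Hz (8.07 ± 0.57), 3000 Hz (8.42 ± 0.21), 1000 Hz (8.73 ± 0.17) and 500 Hz (8.91 ± 0.44). Neighbours overlapped here too, with 1000 and 3000 Hz meeting at a single value, 8.56. At 500 Hz the difference from the control was 2.29 (1.30 to 3.27), or 4.88-fold. At 3000 Hz XTH33 rose by 1.80 (0.81 to 2.78), or 3.47-fold, and passed the test (limma adjusted p = 0.0350). That call was lost in 5 of the 6 fits that left out 1 array of the comparison, all but the fit without control replicate 2, and in the fit of these groups alone (limma adjusted p = 0.243). The remaining changes were 1.18 at 250 Hz (limma adjusted p = 0.226), 2.11 at 1000 Hz (limma adjusted p = 0.128) and 1.45 at 2000 Hz (limma adjusted p = 0.0949), each with an SE of 0.46.

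XTH26, the root hair member, stayed low and nearly level. Its controls read 4.30, 4.27 and 4.24, its 500 Hz arrays 4.38, 4.43 and 4.12 and its 3000 Hz arrays 4.05, 4.29 and 4.30. All 18 arrays lay within 0.38 of each other. On each array 13.6% to 21.2% of probe sets had a lower signal, so XTH26 was always among the dimmer ones, where the deposited values do not say whether a transcript was detected. The changes against silence ran from -0.06 at 3000 Hz (-0.23 to 0.12) to 0.07 at 1000 Hz (-0.10 to 0.25), each with an SE of 0.08.

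**Figure D1:**
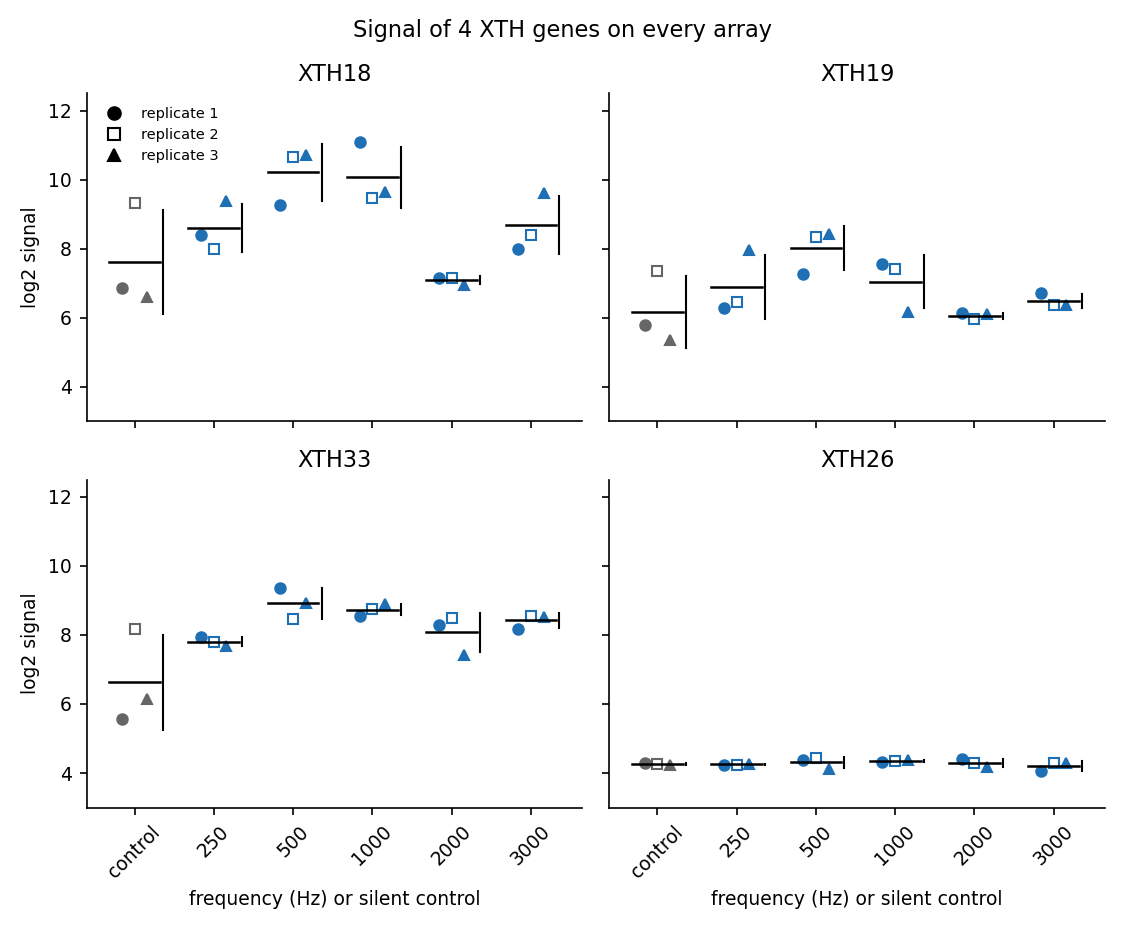
Log2 signal (vertical axis) of XTH18, XTH19, XTH33 and XTH26 on each of the 18 arrays, by group on the horizontal axis, with the marker shape giving the replicate number. Bars across mark the group mean and vertical lines its SD over 3 arrays. Control replicate 2 stands above the other controls for XTH18 (9.34), XTH19 (7.36) and XTH33 (8.17), and XTH26 stays between 4.05 and 4.43.

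Of the 4 members, 3 were called higher at 500 Hz, where 4.14% of all probe sets were. That count repeats the choice of members and carries no evidence. At 250 Hz 0 of 4 were called (0.0352% of all probe sets higher, with XTH33 at an unadjusted p under 0.05), and at 2000 Hz 0 of 4 (1.62%, again with XTH33 unadjusted). At 1000 Hz limma called 0 of 4 members and 0% of all probe sets, while XTH18 and XTH33 had an unadjusted p under 0.05, as did 3516 probe sets. At 3000 Hz 1 of 4 was called higher, XTH33, against 2.84% of all probe sets.

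**Figure D2:**
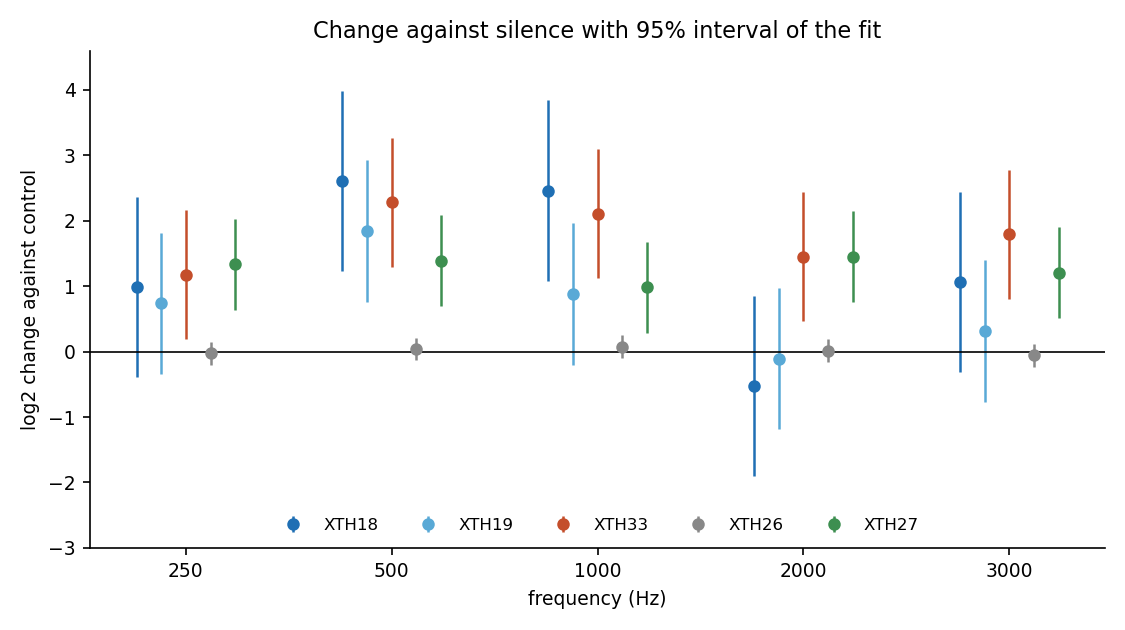
Change in log2 signal against the control (vertical axis) at each frequency in Hz (horizontal axis) for XTH18, XTH19, XTH33, XTH26 and another family gene, XTH27, with 95% intervals from the limma fit of 3 arrays per group. XTH18 goes from 2.46 at 1000 Hz to -0.53 at 2000 Hz, XTH33 keeps between 1.18 and 2.29, and XTH26 stays near 0.

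XTH18, XTH19 and XTH33 all read lower at 2000 Hz than at 1000 Hz, by unequal amounts, and no test compared the genes. Every 2000 Hz array of XTH18 lay below all 9 arrays at 250, 1000 and 3000 Hz, as was so for 2.22% of all probe sets, a pattern noticed in the values and not a test. Against 1000 Hz XTH18 was lower by 2.99 ± 0.65 (SE, 95% interval of the difference -4.37 to -1.61, limma adjusted p = 0.0234), where 1.59% of all probe sets were called lower. This comparison uses no control array. Of the 6 fits without 1 of its arrays, only the fit without 2000 Hz replicate 2 kept the call (limma adjusted p = 0.0427), and the estimate ran from -3.29 to -2.48 with an adjusted p of up to 0.115. The 24 spike-in probe sets averaged 5.99 to 6.51 on the 2000 and 3000 Hz arrays and 5.37 to 5.59 on the others, so the difference lies across that split, whose part in it was not tested. The gap between the 3′ and 5′ actin probe sets, which widens as RNA breaks down, was also apart between these groups, at 1.67 to 1.84 at 2000 Hz and 1.94 to 2.05 at 1000 Hz. The same gap of GAPDH overlapped, at -0.06 to 0.09 at 2000 Hz and 0.04 to 0.08 at 1000 Hz. The root marker PYK10 was apart, at 4.14, 5.41 and 4.94 at 2000 Hz against 5.65, 5.98 and 7.15 at 1000 Hz. The part of the actin and GAPDH gaps and of PYK10 in the XTH18 difference was not tested.

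Within the set of higher spike-in signal, XTH18 at 3000 Hz exceeded 2000 Hz by 1.59 (0.21 to 2.97), with all arrays apart, as 13.4% of probe sets had them, but without passing the test (limma adjusted p = 0.226, 2.34% of all probe sets called higher). XTH18 at 2000 Hz was also apart from 250 Hz, below it by 1.51 on the log2 scale (limma adjusted p = 0.203). Arrays were apart in this direction for 12% of all probe sets, and 1.77% were called lower. XTH19 moved the same way by smaller amounts, with 2000 Hz below 1000 Hz by 0.98 (limma adjusted p = 0.309) and below 250 Hz by 0.84 (limma adjusted p = 0.381), the arrays being apart in both, as for 15.9% of probe sets in the first pair and 12% in the second. XTH33 at 2000 Hz was 0.66 below 1000 Hz, also with all arrays apart (limma adjusted p = 0.474), and 0.27 above 250 Hz (limma adjusted p = 0.802). None of these pairs passed. At 1000 Hz against 250 Hz the arrays of XTH33 were all apart (0.93, limma adjusted p = 0.348), as for 14.6% of probe sets, with 0.0396% called higher. At 3000 Hz against 250 Hz they were apart too (0.62, limma adjusted p = 0.447), as for 17.6%, with 4.25% called higher.

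Over the 18 arrays the Pearson correlation of XTH18 with its neighbour XTH19 was 0.83, and over the 15 sound arrays 0.78. XTH18 with XTH33 gave 0.64 and 0.50, and XTH19 with XTH33 gave 0.51 and 0.26. XTH26 correlated with the others at 0.06 to 0.21 over the 18 arrays and at 0.04 to 0.39 over the 15 sound arrays. These are descriptions over arrays that share groups. The values among XTH18, XTH19 and XTH33 were lower without the controls, whose range was wide. The part of the controls in these correlations was not tested.

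The 3 silent arrays were less alike than those of any sound group. The variance within a group, averaged over probe sets, came to 0.103 for silence and to 0.0275 to 0.0461 for sound, and the fit pools these, so its errors understate the spread of the control mean. For XTH18, XTH19 and XTH33, all 15 sound arrays lay above control replicates 1 and 3, which held for 3.99% of all probe sets. Only 7, 5 and 11 of the 15 sound arrays lay above control replicate 2 as well. Control replicate 2 inside the sound range with the other controls below it was found for 3.59% of probe sets.

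Leaving out control replicate 2 raised the changes of these 3 genes. XTH33 then stood 1.95 above silence at 250 Hz (limma adjusted p = 0.00056), 2.88 at 1000 Hz (limma adjusted p = 2.08e-05), 2.22 at 2000 Hz (limma adjusted p = 0.000215) and 2.57 at 3000 Hz (limma adjusted p = 6.77e-05). XTH18 stood 1.85 above at 250 Hz (limma adjusted p = 0.0485), 3.32 at 1000 Hz (limma adjusted p = 0.00154) and 1.93 at 3000 Hz (limma adjusted p = 0.0343), all past the threshold, and 0.34 at 2000 Hz (limma adjusted p = 0.744). XTH19 passed at none of these frequencies, its nearest being 1.47 at 1000 Hz (limma adjusted p = 0.0653). Without control replicate 1 or 3 the changes at 1000 Hz shrank, to 2.09 or 1.96 for XTH18 and to 1.57 or 1.87 for XTH33. Probe sets called at 250 Hz rose from 10 to 2175 in the fit without control replicate 2, so these calls came with a general gain. With 3 controls the data do not show which level is typical of silence.

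**Figure D3:**
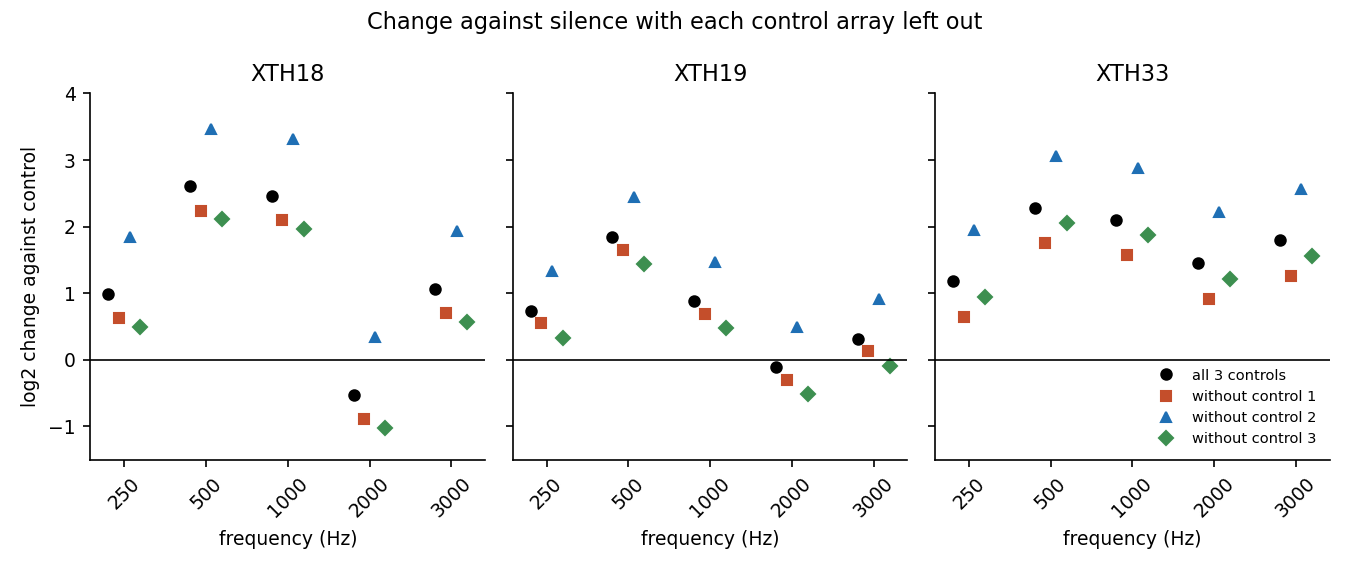
Change in log2 signal against the control (vertical axis) at each frequency (horizontal axis) for XTH18, XTH19 and XTH33, with all 3 controls and with each control array left out. The fits without control replicate 2 lie highest, and at 2000 Hz XTH18 goes from -0.53 to 0.34.

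The other measured family genes were XTH16, XTH20, XTH21, XTH27, XTH29 and XTH32, which makes 10 of the 33 XTH genes of Arabidopsis measured. Measured, here and below, means named alone on a probe set in the platform's table. That table names no gene for 8730 probe sets, so the arrays may also read other genes of the lists. The rest of the family was not analysed here. Of the 6 other family genes, XTH27 alone was called, higher at 500, 2000 and 3000 Hz. At these frequencies 4.14%, 1.62% and 2.84% of all probe sets were called higher. None of the 6 was called lower at any frequency, where 0% to 4.77% of all probe sets were. The median change of the 6 genes was 0.09, 0.23, 0.26, 0.06 and 0.02 at 250, 500, 1000, 2000 and 3000 Hz, against medians from -0.02 to 0.01 over all probe sets.

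XTH27, also called EXGT-A3 and known from leaf veins, read 9.69, 11.69 and 10.13 in silence. At 500 Hz it read 11.84, 11.74 and 12.10, at 2000 Hz 12.06, 11.86 and 11.94 and at 3000 Hz 11.76, 11.75 and 11.62. The 250 Hz arrays read 11.76, 11.84 and 11.91. The arrays at 250, 500 and 2000 Hz lay above all controls, which held for 6.05%, 10.3% and 7.5% of all probe sets. Control replicate 2 stood close beneath them. It was the highest control, as in XTH18, XTH19 and XTH33, and 12 of the 15 sound arrays of XTH27 lay above it. XTH27 rose by 1.39 ± 0.33 (SE) at 500 Hz (limma adjusted p = 0.0210), by 1.45 at 2000 Hz (limma adjusted p = 0.0309) and by 1.21 at 3000 Hz (limma adjusted p = 0.0404). It did not pass at 250 Hz (1.33, limma adjusted p = 0.0855) or 1000 Hz (0.99, limma adjusted p = 0.177). Of 6 fits without 1 array the call was kept in 2 at 500 Hz, 2 at 2000 Hz and 1 at 3000 Hz, and in none of the fits of 2 groups alone. Unlike XTH18, XTH27 at 2000 Hz was 0.46 above 1000 Hz (limma adjusted p = 0.475), which did not pass, and no test compared the genes.

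XTH16 read 8.38, 9.59 and 7.55 in silence and 8.32 to 9.37 under sound, again with control replicate 2 the highest control, and it was not called. XTH32, of the family subgroup that includes hydrolases, read 10.40, 9.08 and 9.02 in silence and 8.74 to 9.68 under sound. There the high control was replicate 1, and the 500 Hz change of -0.64 did not pass (limma adjusted p = 0.146). XTH20 (4.00 to 4.57), XTH21 (3.71 to 4.00) and XTH29 (4.09 to 4.91) were dim like XTH26. Over the 5 frequencies the moderated F test called 15.6% of all probe sets and 0 of these 6 genes, with XTH29 at an unadjusted p under 0.05.

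Of 14 genes for making xyloglucan, 5 were measured, all CSLC genes, which encode synthases of its glucan backbone. At 500 Hz 2 were called higher and 1 lower, where 4.14% of all probe sets were called higher and 4.77% lower. CSLC4, the main backbone synthase of Arabidopsis, read 9.64, 10.64 and 10.31 in silence and 10.70, 11.02 and 11.12 at 500 Hz. These arrays did not overlap, as for 10.3% of all probe sets higher at 500 Hz. CSLC4 rose by 0.75 ± 0.20 (SE, limma adjusted p = 0.0298). CSLC12 rose by 0.59 ± 0.17 (limma adjusted p = 0.0446), from 5.10, 5.46 and 4.87 to 5.29, 6.03 and 5.88, and these groups overlapped. CSLC5 fell from 8.58, 7.57 and 7.95 to 7.42, 7.0 and 7.33, a change of -0.78 ± 0.22 (limma adjusted p = 0.0388).

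CSLC6 and CSLC8 were not called, and no CSLC gene was called at another frequency against silence. The 500 Hz calls were kept in 3 of 6 fits without 1 array for CSLC4 and in 2 of 6 for CSLC5 and CSLC12, and all 3 were lost in the fit of the 2 groups alone (limma adjusted p between 0.253 and 0.281), which called 0 probe sets of any gene at 500 Hz. CSLC12 at 2000 Hz read 5.03, 5.05 and 4.88 and fell by 0.75 below its 500 Hz level (limma adjusted p = 0.0284, 1.79% of all probe sets called lower). Of 5 genes for trimming xyloglucan, BGLC1 was measured and not called, and the lists of cellulose synthases and of XTH regulators were not analysed here.

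**Figure D4:**
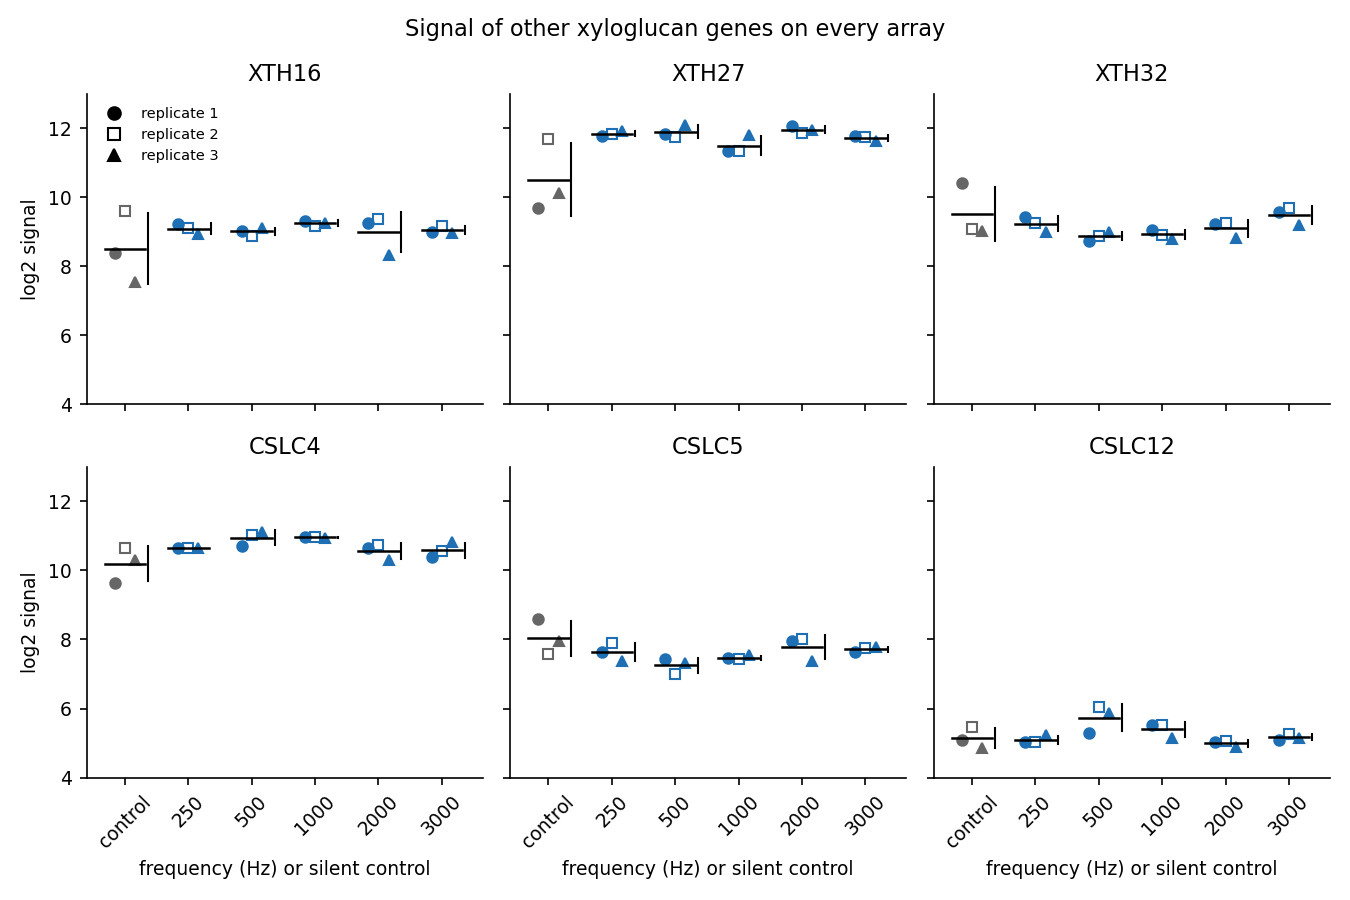
Log2 signal (vertical axis) of XTH16, XTH27, XTH32, CSLC4, CSLC5 and CSLC12 on each of the 18 arrays by group, with the replicate number as marker, bars at group means and lines for the SD over 3 arrays. XTH27 has control replicate 2 at 11.69, beside the sound arrays, and CSLC4 at 500 Hz lies above all controls, as for 10.3% of all probe sets.

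Since XTH18, XTH19 and XTH26 are known from roots, root markers were set beside them. Of 14, 3 were measured, and none was called at any frequency. PYK10, a beta-glucosidase of roots, read 8.67, 5.38 and 5.82 in silence, where the high array was replicate 1, the control with the lowest XTH33, and not replicate 2. PYK10 was lowest at 2000 Hz, where its arrays lay below all those at 250 Hz (6.64, 7.94 and 5.64), 1000 Hz and 3000 Hz (7.11, 7.11 and 6.98), as for 2.22% of all probe sets. The differences were -1.91 from 250 Hz (limma adjusted p = 0.157) and -1.43 from 1000 Hz (limma adjusted p = 0.306), and 3000 Hz exceeded 2000 Hz by 2.24 (limma adjusted p = 0.119). XTH18 was lower at 2000 Hz in the same 3 pairs. At 500 Hz, where the XTH18 mean was highest (10.22), PYK10 read 4.32 to 6.02. PYK10 at 2000 Hz differed from 500 Hz by -0.49, and those arrays overlapped. The root hair expansins EXPA7 (5.08 to 5.46) and EXPA18 (4.61 to 5.13) varied little. The mean of the 3 markers ran from 5.23 to 6.24 in silence, 5.29 to 6.04 at 250 Hz, 4.84 to 5.38 at 500 Hz, 5.24 to 5.76 at 1000 Hz, 4.79 to 5.26 at 2000 Hz and 5.73 to 5.78 at 3000 Hz. The part of root marker levels in the XTH values was not tested. FAMA, a regulator of guard cell identity and the single guard cell marker measured of 3, read 7.38, 7.60 and 7.09 in silence. It fell by 0.63 at 500 Hz (limma adjusted p = 0.0321) and by 0.72 at 3000 Hz (limma adjusted p = 0.0229). At these frequencies 4.77% and 3.76% of all probe sets were called lower. The FAMA call was kept in 2 of 6 fits without 1 array at 500 Hz and in 3 of 6 at 3000 Hz, and lost in the fits of 2 groups alone (limma adjusted p = 0.238 and 0.202). The part of FAMA was not tested either, and markers of mesophyll and of flowers were not analysed here.

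The 3′ actin probe set exceeded the 5′ one by 1.94 ± 0.017 (SD, n = 3) in silence, 1.96 ± 0.15 at 250 Hz, 2.06 ± 0.29 at 500 Hz, 2.01 ± 0.059 at 1000 Hz, 1.75 ± 0.086 at 2000 Hz and 1.61 ± 0.055 at 3000 Hz. The GAPDH gap averaged from -0.05 ± 0.13 (SD, n = 3) at 3000 Hz to 0.083 ± 0.096 at 500 Hz. The part of either gap in the XTH differences was not tested. Array medians lay between 6.51 and 6.63. For 2000 and 3000 Hz against silence, the frequency and the higher spike-in signal cannot be told apart.

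For each member the 3 named genes with the most similar pattern were taken by the Pearson correlation over the 18 arrays, with the value over the 15 sound arrays beside it. XTH18 went with AT1G19380 (0.94 and 0.95), HEMA2, a glutamyl-tRNA reductase of tetrapyrrole synthesis (0.93 and 0.93), and AT2G21120 (0.93 and 0.94). XTH19 went with AT5G39580 (0.93 and 0.92), HEMA2 (0.88 and 0.89) and CSLC12 (0.88 and 0.87). HEMA2 was on both lists.

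XTH33 went with AT4G31000 (0.93 and 0.88), AT1G70740 (0.92 and 0.61) and AT1G50040 (0.91 and 0.55). The correlations of AT1G70740 and AT1G50040 with XTH33 were lower without the control arrays, whose part in them was not tested. XTH26 went with AT3G32910 (0.80 and 0.84), AT5G48710 (0.80 and 0.81) and AT2G13250 (0.75 and 0.78), whose signals all lay between 3.47 and 4.10. These are the highest of the correlations with all named genes, between arrays that share groups.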

How the data were processed

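Transcript levels in rosettes were measured on 18 ATH1 arrays, 3 in each of 6 groups. Each deposited column holds the log2 signal of every probe set on 1 array. Affymetrix Expression Console 1.1, RMA and MAS5 are named in the submitters' processing notes with no role given, so which of them made the values, and any centring, is unknown. Array medians lay between 6.51 and 6.63, and no further scaling was applied.

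Of 22810 probe sets, 64 Affymetrix controls were set aside. Of all probe sets, 13513 had 1 gene, 503 several and 8730 none in the platform's table. Genes were named through that table, and RefSeq TAIR10.1 was used for names and neighbours only.

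A single linear model of the 6 groups was fitted to 22746 probe sets in R 4.3.3 by lmFit of limma 3.58.1, and eBayes moderated the variances with trend=TRUE. Tests were two-sided, adjusted by Benjamini-Hochberg, and called at an adjusted p under 0.05. The script was tested on simulated data. P-values rest on the spread between arrays within groups, pooled over the 6 groups and moderated over probe sets. The number of arrays, 3 per group, limits precision.

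The members and gene lists were chosen with earlier results of these data known. Named genes were the members, family and list genes that passed, and the 3 most correlated genes per member. Alternatives covered a replicate block, quantile normalization, median centring, no trend, brighter probe sets only, fits of the compared groups alone and each array left out.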

Additional observations from a re-analysis of the deposited data

Results flagged for a closer look

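Differences between frequencies that passed the test are given here as values (log2 scale, limma with Benjamini-Hochberg adjustment over all probe sets, 3 arrays per group). XTH18 at 2000 Hz differed from 1000 Hz by -2.99, with every 2000 Hz array below every 1000 Hz array, as for 15.9% of all probe sets. Of the 6 fits without 1 array, only that without 2000 Hz replicate 2 kept the XTH18 call. CSLC12 at 2000 Hz differed from 500 Hz by -0.75, and of the 6 fits without 1 array only that without 500 Hz replicate 1 kept this call. It was also lost in the fit of these groups alone (limma adjusted p = 0.0742). CSLC12 at 3000 Hz differed from 500 Hz by -0.56 (limma adjusted p = 0.0448), where 4.55% of all probe sets were called lower. This call was lost with median centring (limma adjusted p = 0.0533) and in the fit of these groups alone (limma adjusted p = 0.0797). FAMA, the guard cell marker, at 3000 Hz differed from 250 Hz by -0.71 (limma adjusted p = 0.0180), where 4.52% of all probe sets were called lower. Fits without 1 array are not given here for this FAMA difference. The XTH18 and CSLC12 differences lie across the split in spike-in signal, as does that of FAMA. Groups of 3 arrays were not searched for single outlying arrays.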

How the results depend on the processing

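Of the 10 XTH family probe sets measured, members included, 0, 4, 0, 1 and 2 were called at 250, 500, 1000, 2000 and 3000 Hz against silence. The counts were 2 for the mean of the frequencies, 1 among the frequencies and 3 over the 10 pairs of frequencies. Of all probe sets, 0.044%, 8.91%, 0%, 2.89% and 6.6% were called at those frequencies, in either direction. The share was 3.69% for the mean, 15.6% among the frequencies and 0% to 11.9% in single pairs. At 500 Hz the 4 include XTH18, XTH19 and XTH33, chosen by that comparison. Of the 3 pair calls, 2 were members at 2000 against 500 Hz, which is also a description without a test. The 1 called among the frequencies was a member, and so was 1 of the 2 for the mean. Both of these comparisons use the 500 Hz arrays by which those members were chosen. Fitting only the groups compared gave 0 at 500, 2000 and 3000 Hz, 4 among the frequencies and 10 over the pairs. That fit called 0 of 22746 probe sets at each of 500, 2000 and 3000 Hz and 6238 among the frequencies, against 3556 with all groups, so the family counts moved with the total. Only the 12 arrays of lower spike-in signal, chosen after seeing the data, gave 1 at 500 Hz, with 709 of all probe sets called. Leaving out 1 array at a time gave 0 to 4 at 250 Hz, 0 to 5 at 500 Hz, 0 to 5 at 1000 Hz, 0 to 3 at 2000 Hz, 0 to 4 at 3000 Hz, 0 to 5 for the mean, 0 to 2 among the frequencies and 0 to 4 over the pairs. Against silence the highest of these counts came without control replicate 2. That fit called 2175 to 4075 of all probe sets at single frequencies. Quantile normalization, median centring, no trend and brighter probe sets only (6 of the 10 genes) stayed within 1.5 times the family counts given first. With the replicate number as a block the counts were 0, 4, 0, 1, 2, 2, 1 and 2, but the numbers do not pair the samples: 12 of 45 same-number correlations exceeded 0.1, and in 13 of 45 comparisons a sample correlated best with its own number. The mean over frequencies against silence has no fit of fewer groups. XTH18, XTH19 and XTH33 changed sign only without 1 array: XTH18 at 2000 Hz against silence ran from -1.02 to 0.34 and at 3000 against 250 Hz from -0.39 to 0.47. The order of 500 and 1000 Hz was not fixed: their difference ran from -0.66 to 0.16 in XTH18 and from -0.40 to 0.04 in XTH33. In XTH26 10 comparisons changed sign without 1 array, within -0.13 and 0.14, and some of these also with median centring or quantile normalization. XTH19 ran from -0.51 to 0.49 at 2000 Hz and from -0.088 to 0.91 at 3000 Hz against silence, from -0.17 to 0.67 at 1000 against 250 Hz and from -0.73 to 0.11 at 3000 against 250 Hz. The cause was not tested where fewer arrays or groups do not give it.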
